A study of Mus musculus with 8 samples.

Results

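Meg3, Rian and Mirg are imprinted noncoding RNAs of the Dlk1-Dio3 domain on mouse chromosome 12, and the peaks described here are those that overlapped the interval from 109500000 to 109720000 (build GRCm39) by at least 1 bp. There were 105 such peaks among the 72953 of the 4 lists, 10 and 13 in the full-length replicates and 34 and 48 in the del-cIDR replicates. The peaks came from eCLIP, in which ultraviolet light (here 254 nm at 400 mJ per cm2) crosslinks a protein to the RNA it touches before the protein is immunoprecipitated. The protein was endogenous ALKBH5 in nuclei of mouse embryonic stem cells of the E14TG2a line, kept pluripotent with LIF and with inhibitors of MEK and GSK3. The full-length group was wild-type cells with intact ALKBH5, and the del-cIDR group was cells whose own Alkbh5 gene encodes a protein without its C-terminal intrinsically disordered region. Each group had 2 immunoprecipitates with a peak list each, and an input in 2 replicates that was not analysed here as separate data. The labels do not say whether replicates were separate cultures, or whether the del-cIDR line was 1 clone. The 2 del-cIDR lists are named as a knock-in in the files and were assigned to del-cIDR because it is the only genotype besides the wild type.

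ALKBH5 removes the methyl group of N6-methyladenosine from RNA and acts mainly in the nucleus, where many long noncoding RNAs stay. In the Dlk1-Dio3 domain the noncoding RNAs are transcribed from the maternal chromosome, while the protein-coding genes Dlk1, Rtl1 and Dio3 are expressed from the paternal one. Meg3 is a nuclear long noncoding RNA known as a growth suppressor. Rian is the host of a large group of C/D box small nucleolar RNAs, and Mirg is the host of part of the largest microRNA cluster of the domain. The domain is known for being silenced in some pluripotent stem cell lines. The peaks carry no strand and no allele. Neither maternal and paternal RNA nor Rtl1 and its antisense RNA could thus be separated.

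In the RefSeq gene order of an older build (GRCm38.p6), used here only for names and neighbours, Meg3 comes first, then Rtl1, Rian and Mirg. The stretch from Meg3 to the last microRNA of the cluster lists 60 microRNA genes and 19 small nucleolar RNA genes. All of these small nucleolar RNA genes follow the start of Rian and precede Mir379. From Mir379 to Mir410 the table lists 38 microRNA genes, with Mirg among them. Because the gene table and the peaks are on different builds, no peak was assigned to a single gene, exon or microRNA. Positions are therefore given along the interval.

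Some of the small RNAs of the microRNA cluster from Mir379 to Mir410 are shown as sequence. All 60 microRNA genes matched the RefSeq microRNA table. Among the mature microRNAs from Mir379 to Mir410 listed on the plus strand, 12 fell into 6 groups with the same seed, the stretch that pairs with targets. The cluster's genes had 71 mature microRNA names without regard to strand, and groups of identical sequences were left out. The sequences below are RefSeq's, 5′ to 3′, with the seed (bases 2 to 8) in capitals, and no sequence under the peaks was at hand.
mmu-miR-379-5p: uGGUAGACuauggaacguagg
mmu-miR-1193-5p: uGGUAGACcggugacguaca
mmu-miR-379-3p: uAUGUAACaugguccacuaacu
mmu-miR-411-3p: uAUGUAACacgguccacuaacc
mmu-miR-1197-5p: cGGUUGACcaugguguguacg
mmu-miR-758-5p: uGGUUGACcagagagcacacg
mmu-miR-494-5p: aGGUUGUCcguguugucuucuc
mmu-miR-410-5p: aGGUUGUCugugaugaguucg
mmu-miR-376c-5p: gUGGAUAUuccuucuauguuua
mmu-miR-376b-5p: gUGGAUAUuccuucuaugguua
mmu-miR-453: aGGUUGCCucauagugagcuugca
mmu-miR-496a-5p: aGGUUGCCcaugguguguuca
The seed groups of miR-379-5p, miR-1197-5p, miR-494-5p and miR-453 all begin with the letters GGU. Whether a peak lay on any of these hairpins was not determined.

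Del-cIDR ALKBH5 had more peaks in the interval than full-length ALKBH5, and over a longer stretch. The del-cIDR peaks lay between 109511930 and 109716071, and the full-length peaks between 109529098 and 109628097. With 34 and 48 peaks against 10 and 13, every del-cIDR list held more than every full-length list. The means were 11.5 ± 2.12 and 41.0 ± 9.90 peaks (SD, n = 2 per genotype), a 3.57-fold difference. Peaks of full-length ALKBH5 covered 10276 and 8973 bp and those of del-cIDR covered 19444 and 28653 bp, with means of 9624.5 ± 921 and 24048.5 ± 6512 bp (SD, n = 2). Both measures differed between genotypes by more than the replicate spread, with no overlap. How common such a separation is across the genome is given below for summit counts and was not computed for covered bases. The mean peak width went the other way, at 859 ± 239 bp for full-length against 584 ± 17.7 bp for del-cIDR (SD, n = 2). The median widths, 609.5 and 335 bp against 427 and 474.5 bp, overlapped between genotypes, and a larger mean width of full-length peaks was also found over the whole lists (619 and 459 bp against 403 and 419 bp). These differences were not tested, because the interval was selected on the peak lists themselves, chosen by position and by the width of the 3776 bp peak of del-cIDR replicate 2, the widest of that list. More peaks per RNA and more RNA cannot be told apart in these lists.

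A genotype difference without overlap was common across the genome. Among 4699 windows of 220 kb with at least 4 summits over the 4 lists, both del-cIDR counts exceeded both full-length counts in 31.9% and the reverse held in 24.8%. The direction in the imprinted interval is thus unremarkable by itself. Its size was at the edge of the windows, since the 82 del-cIDR summits ranked 2 and the 23 full-length summits ranked 257 among the windows, where the median was 4 for each genotype. The windows were laid from the interval's start, so the interval fell in a single window, while other clusters of peaks could be split between windows. The difference of 59 summits ranked 1, also against windows shifted by 110 kb, but 3, 6 and 304 with peaks of a list within 100 bp, 1 kb and 5 kb joined. The share of del-cIDR summits, 78.1%, was less unusual, as 164 of the 1054 windows with at least 20 summits (15.6%) had as high a share. The windows next in order of the difference were on chromosome 10 from 79800000 to 80019999, with 56 more del-cIDR summits, and on chromosome 7 from 78920000 to 79139999, with 54 more.

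**Figure D1:**
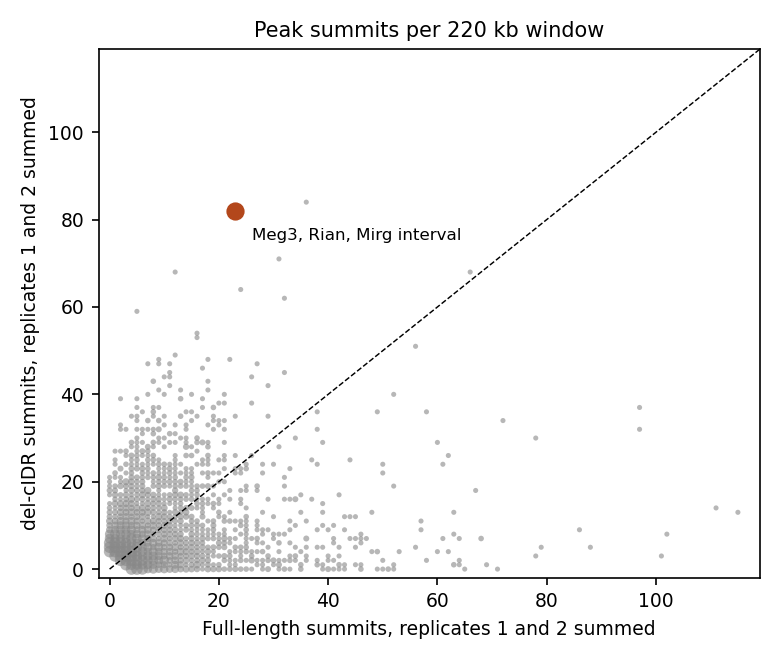
Peak summits per 220 kb window for full-length (x axis) and del-cIDR (y axis), each summed over 2 replicates. A grey point is a pair of counts and grows with the number of windows that have it, the dashed line marks equal counts, and the orange point is the imprinted interval with 23 full-length and 82 del-cIDR summits, far above the line.

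The del-cIDR excess was not seen among the peaks with the highest fold enrichment. Fold enrichment is the authors' value of a peak over the background of the peak caller. With only peaks of at least 4-fold, 2 of 10 and 4 of 13 peaks were left in the full-length lists, against 2 of 34 and 1 of 48 for del-cIDR. Over the whole lists 45.8% and 41.7% of full-length and 31.6% and 30.4% of del-cIDR peaks reached 4-fold. Such a limit thus removes a larger share of the del-cIDR lists as a whole than of the full-length lists. The difference in mean peak number then changed sign, from 29.5 to -1.50 (del-cIDR minus full-length), and that in covered bases went from 14424 to -4848 bp. The interval then ranked 1674 among the windows by difference. Median fold enrichment in the interval was 2.30 and 2.78 in the full-length and 2.40 and 2.44 in the del-cIDR replicates, which overlap. Over all peaks of the lists the medians were higher, 3.80 and 3.60 in the full-length and 3.17 and 3.16 in the del-cIDR lists.

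The peaks fell into 5 blocks separated by more than 10 kb without a peak in any list, a division made after the peaks were seen. Block 1 spanned 109511930 to 109516095 and block 2 spanned 109529098 to 109579840. Block 3 lay from 109626216 to 109633272, block 4 from 109659448 to 109662532, and block 5 from 109678112 to 109716071. Blocks 1, 4 and 5 held peaks in both del-cIDR lists, and neither full-length list held any there. Both full-length lists had peaks in blocks 2 and 3 and in no other, so that all full-length peaks lay between 109529098 and 109628097.

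**Figure D2:**
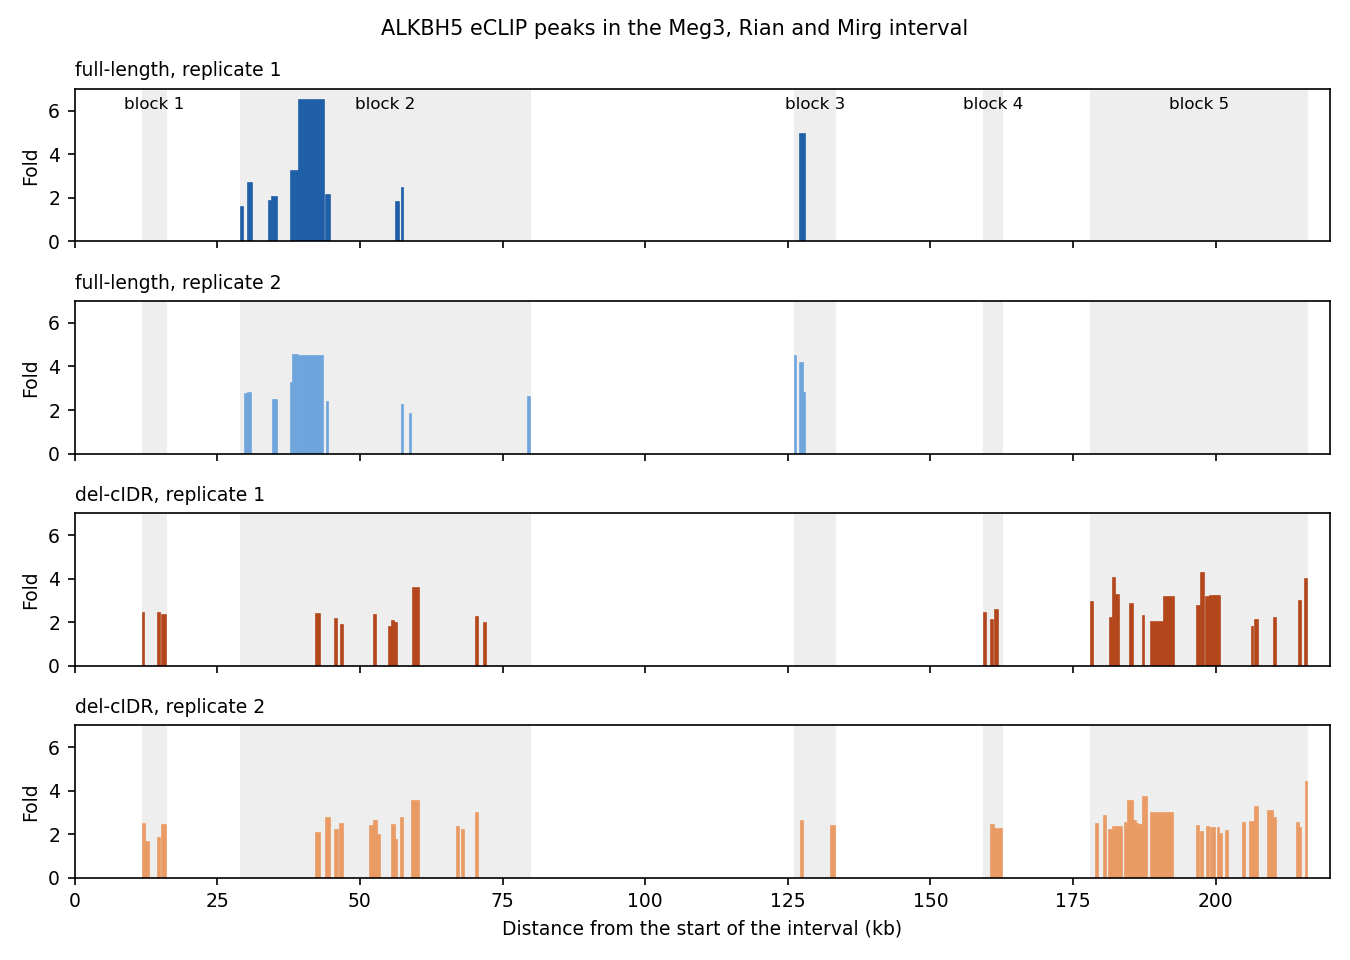
Peaks along the interval in each of the 4 libraries, with the distance from the interval's start in kb on the x axis and the authors' fold enrichment on the y axis. A bar is a peak drawn at its own width, grey bands are the 5 blocks, and blocks 1, 4 and 5 are empty in both full-length lists.

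Block 5, the most distal, spanned 37.96 kb and held more than 50% of the del-cIDR peaks of the interval. Del-cIDR replicate 1 had 18 peaks there over 12205 bp and replicate 2 had 26 over 16364 bp. None was listed in either full-length replicate, and the del-cIDR mean was 22 ± 5.66 peaks and 14284.5 ± 2941 bp (SD, n = 2). The block took 52.9% and 54.2% of the interval's del-cIDR peaks and 62.8% and 57.1% of their bases. Peaks covered 32.2% and 43.1% of the block's length in the 2 replicates. Of the 18 peaks of replicate 1, 17 overlapped a peak of replicate 2, and of the 26 peaks of replicate 2, 16 overlapped a peak of replicate 1. The Jaccard index, shared bases over all bases covered, was 0.542 between the replicates in this block. Enrichment here was modest, from 1.80 to 4.24-fold in replicate 1 and from 2.00 to 4.39-fold in replicate 2, and 2 and 1 peaks reached 4-fold.

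**Figure D3:**
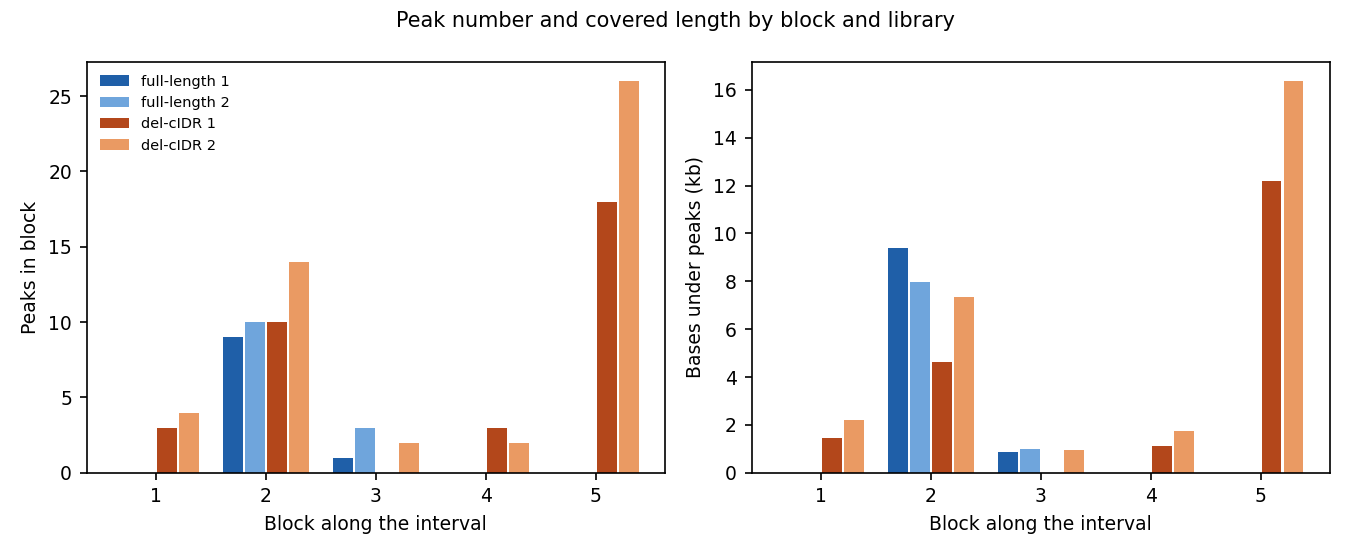
Number of peaks (left) and kilobases under peaks (right) in each block, with 1 bar per library. Block 5 has 18 and 26 del-cIDR peaks and no full-length bar, while in block 2 the full-length bars are the higher ones for covered length.

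The widest del-cIDR peak lay in the proximal part of block 5 and marked a segment that both del-cIDR replicates covered almost end to end. In replicate 2 it was a single peak of 3776 bp from 109688745 to 109692520, with 2.97-fold enrichment and a −log10 q of 20.9. It was the widest of the 18841 peaks of that list, but ranked 4481 by −log10 q. In replicate 1 the same segment held a pair of peaks, from 109688645 to 109690813 (2169 bp, 2.02-fold) and from 109690859 to 109692752 (1894 bp, 3.14-fold). Only 45 bp separated them, and they covered 98.8% of the replicate 2 peak. Joined, they spanned 4108 bp, with ends 100 and 232 bp beyond those of replicate 2. These 2 peaks were the 9th and 21st widest of the 17584 in their list.

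Summits did not repeat in this segment as well as the edges did. The replicate 2 summit at 109690993 lay 251 bp from the summit of the first replicate 1 peak (109690742) and 1241 bp from that of the second and stronger one (109692234). No other region of the interval had so large a distance between the best summits of the del-cIDR replicates. Neither full-length list held a peak in the segment.

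A narrow site lay at the distal end of block 5. This region, from 109715749 to 109716071, had 3.97-fold and 4.39-fold enrichment in the del-cIDR replicates, with the summit at 109715844 in both. Its peaks were 305 and 311 bp wide, close to the smallest width of their lists, 300 and 301 bp. It thus differed in form from the broad segment, though both were among the 6 best ranked regions held by del-cIDR alone.

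Full-length ALKBH5 had its own broad peak in block 2, wider than any del-cIDR peak of the interval and nearly identical in both replicates. It ran from 109539301 to 109543771 in replicate 1 and from 109539323 to 109543537 in replicate 2, with widths of 4471 and 4215 bp. The starts differed by 22 bp and the ends by 234 bp. Enrichment was 6.50-fold and 4.46-fold, the former the highest of all 105 peaks, with −log10 q of 121.6 and 52.3. Among all peaks of their lists these were the 146th and 90th widest. Wide peaks were more common in the full-length lists as a whole, with 825 and 361 peaks of at least 2 kb against 16 and 26 for del-cIDR. The widest peaks of the whole del-cIDR lists were 3319 and 3776 bp, so the contrast in width was not particular to the interval. The summits, at 109542107 and 109542553, lay 446 bp apart.

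The del-cIDR lists touched this broad peak at 1 narrow place. Replicate 1 had a peak from 109542363 to 109542984 (2.39-fold) and replicate 2 one from 109542374 to 109542983 (2.04-fold), with summits 3 bp apart at 109542452 and 109542449. They covered 13.9% and 13.6% of the wider full-length peak. This was the only region of the interval with a peak in all 4 libraries, and the del-cIDR peaks lay within the distal part of the full-length one, 345 and 342 bp from its summit in replicate 1 and 101 and 104 bp from that in replicate 2.

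**Figure D4:**
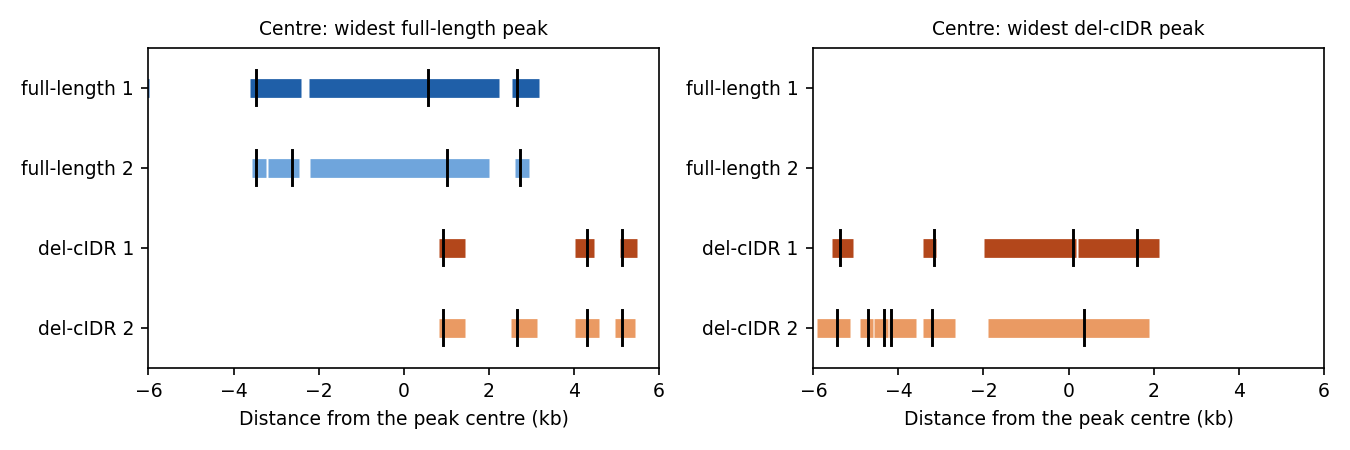
Peaks of each library within 6 kb of the centre of the widest full-length peak (left) and of the widest del-cIDR peak (right), as distance from that centre in kb. A bar is a peak and a black tick its summit, and the right panel has no full-length peak while in the left one del-cIDR peaks are narrow and begin beyond the centre.

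Within block 2 most full-length peaks lay before 109545000 and most del-cIDR peaks after it, a position chosen after the peaks were seen because it parts them. The full-length replicates had 7 and 7 peaks before and 2 and 3 after it. The del-cIDR replicates had 1 and 2 peaks before and 9 and 12 after it. Before the division, full-length peaks covered 8574 and 7114 bp and del-cIDR peaks 622 and 1226 bp. After it, full-length peaks covered 820 and 860 bp and del-cIDR peaks 4022 and 6132 bp. Since the position was picked for this pattern, these values only describe it. The most distal peak of the block, from 109579515 to 109579840, was in full-length replicate 2. Over the whole block the peak numbers were near each other, at 9.50 ± 0.707 and 12 ± 2.83 (SD, n = 2), and the lowest del-cIDR count equalled the highest full-length count of 10.

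The 3 regions found in both full-length lists and in neither del-cIDR list all lay before that division. The strongest ran from 109537932 to 109539112, directly before the broad peak, with 3.24-fold and 3.25-fold enrichment at summits 1 bp apart (109538063 and 109538062). In replicate 2 it held a pair of peaks, the second with 4.51-fold enrichment. The others ran from 109530393 to 109531018 (2.68-fold and 2.79-fold) and from 109534563 to 109535543 (2.06-fold and 2.47-fold). Their summits lay 28 and 18 bp apart between replicates. With peaks within 1 kb joined, the broad peak and its neighbours made a single run of 6782 and 6517 bp in the full-length lists.

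After the division, del-cIDR had a wide and well ranked region at 109559186 to 109560357. Its peaks were 993 and 1172 bp wide, with 3.55-fold and 3.54-fold enrichment and summits 8 bp apart. Full-length replicate 2 had a peak shortly before it, from 109558765 to 109559022, which did not overlap it. A further region, from 109557208 to 109557637, was held by both full-length replicates (2.48-fold and 2.24-fold) and by del-cIDR replicate 2 (2.75-fold). Its 3 summits lay close together, at 109557433, 109557427 and 109557445. Before the division, the region from 109544067 to 109544713 was held by the same 3 libraries, at 2.13-fold, 2.35-fold and 2.74-fold. After it, the region from 109555676 to 109556817 joined full-length replicate 1 with both del-cIDR replicates, which had 2 peaks each there.

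Block 1, the most proximal, held the best ranked del-cIDR peaks of the interval. The region from 109511930 to 109512246 had −log10 q of 116.5 and 114.7 and ranked 1016 and 1015 in the del-cIDR lists, with summits 1 bp apart at 109512143 and 109512142. Its enrichment was only 2.41-fold and 2.46-fold, so rank and enrichment diverged. The regions from 109514615 to 109515023 (2.41-fold and 1.81-fold) and from 109515289 to 109516095 (2.31-fold and 2.44-fold) followed, with summits 7 and 2 bp apart. Neither full-length list held a peak in the block. These 3 regions, the one at 109559186, the broad segment of block 5 and its last region were the 6 best ranked of those in both del-cIDR and neither full-length list.

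Block 3 held a strong full-length site. The region from 109627216 to 109628097 had 4.93-fold enrichment in full-length replicate 1 and 4.16-fold in replicate 2, with −log10 q of 111.2 and 78.2. Del-cIDR replicate 2 had a peak of 315 bp there (2.62-fold), and del-cIDR replicate 1 had none. The summits of full-length replicate 1 and del-cIDR replicate 2 were 109627469 and 109627468. In block 4 only del-cIDR had peaks, 3 and 2, with regions from 109660595 to 109661127 and from 109661302 to 109662532 in both replicates at 2.10 to 2.55-fold.

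Merging the 4 lists gave 59 regions in the interval, and the share held by both del-cIDR and neither full-length list was above that of the whole series. Such regions numbered 25 (42.4%), against 17.7% of all 43029 regions of the series. Regions of both full-length and neither del-cIDR list numbered 3 (5.08%), against 17.5% in the series, and 1 region (1.69%) was in all 4 libraries, against 4.7%. A single library accounted for 26 regions, of which 16 were from del-cIDR replicate 2, the list with the most peaks here. The remaining 4 regions joined 3 libraries each. These shares are a description of a chosen interval. The counts moved with single libraries. Without del-cIDR replicate 1 or 2 the del-cIDR count was 43 or 32. Without full-length replicate 1, full-length replicate 2 or del-cIDR replicate 2 the full-length count was 9, 5 or 6. A class needs fewer libraries when 1 is left out, so regions of a single library can enter it. The count in all remaining libraries was 4 without del-cIDR replicate 1 and 2 without full-length replicate 2. With only peaks of at least 4-fold, no region was held by both del-cIDR lists, and 2 were held by both full-length and neither del-cIDR list, namely the broad peak at 109539301 and the region at 109627216.

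Replicates shared far more of their covered bases in the interval than the genotypes did. The Jaccard index was 0.687 between the full-length and 0.498 between the del-cIDR replicates, against 0.461 and 0.404 over the whole lists. Across genotypes it was 0.0224 to 0.0571 in the interval and 0.0606 to 0.0730 over the whole lists. Both replicates together covered 11409 bp for full-length and 32110 bp for del-cIDR, and the genotypes shared 2128 bp, which was 18.7% of the former and 6.63% of the latter. Best summits of the replicates lay within 50 bp of each other in 5 of 7 full-length and 20 of 27 del-cIDR regions held by both, with medians of 28 and 9 bp. Most of the interval's del-cIDR regions held by both replicates thus had their summits at nearly the same positions. The same share was not computed over the whole series.

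The interval was set off from its surroundings in all 4 libraries. The flank of equal length before it held 1 peak in each del-cIDR list and none in the full-length lists, and the flank after it held 3 and 1 full-length peaks and no del-cIDR peak. The first del-cIDR peaks began 11.9 kb inside the interval, and the last ended 3.95 and 3.93 kb before its end. The nearest del-cIDR peaks outside lay 132.7 kb before the interval and 524.4 kb after it in both replicates. The nearest full-length peaks outside lay 635.5 and 724.3 kb before and 195.5 and 197.5 kb after it.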

How the data were processed

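Nuclear ALKBH5 eCLIP peak lists of 4 immunoprecipitates were used. The submitters' processing notes name MACS2, UMI-tools, STAR and cutadapt with the build GRCm39; their versions and settings and the control of peak calling are not given in the sources read. For each peak the authors deposited a fold enrichment (a ratio), the −log10 of a p-value and of a q-value, a score that follows the −log10 q, and a summit offset of a kind other than these units. Lists were named per library, as 1 set of peaks for each replicate. The lists held 19892 and 16636 full-length and 17584 and 18841 del-cIDR peaks. Read depth is unknown, and more reads can also give more peaks.

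Peaks were merged into regions at 1 bp overlap with Python 3.11.15, a region's best peak being that with the highest −log10 q. Ranks are by −log10 q within a list. Regions named are all those found in both replicates of a genotype where a class held 10 or fewer, otherwise the 6 best by mean rank, with the widest peaks and, chosen after their values were seen, a few neighbours and the regions of block 4. Windows were counted by summits. The merging was tested on 2000 simulated regions, of which 100% were classed right. The simulated peaks had equal widths, their regions lay apart and none was mixed, so this checks the code only. Broad or closely spaced peaks like those of the interval were not simulated. The interval, blocks and lists were chosen with earlier results of these data known. Cell type markers fixed for this study and single genes were not placed, since the gene table is on another build. Alternatives were limits on −log10 q and fold, equal list lengths, joined peaks, 50% overlap, shifted windows and leaving out each replicate; joining within 1 and 5 kb was added after the data were seen.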

Additional observations from a re-analysis of the deposited data

How the results depend on the processing

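The del-cIDR excess in peak number and covered bases of the interval kept its direction under every alternative run except the limit of at least 4-fold enrichment. That limit turned the difference in mean peak number (del-cIDR minus full-length, 29.5) to -1.50 and that in covered bases (14424 bp) to -4848 bp, and left 0 regions in both del-cIDR and neither full-length list and 0 in all 4 libraries. Joining peaks within 1 kb gave a peak difference of 12.5, 11 del-cIDR regions and 2 regions of all libraries; joining within 5 kb gave 3.00 peaks, 43866 bp, 4 del-cIDR and 0 full-length regions. Joined peaks are fewer by construction. Leaving out each replicate gave peak differences of 22.5 to 36.5, covered-base differences of 9819.5 to 19028.5 bp, 25 to 43 del-cIDR regions, 3 to 9 full-length regions and 1 to 4 regions of all remaining libraries. A class needs fewer libraries in such fits. The interval's rank by summit difference was 1674 with the 4-fold limit, 3 with peaks within 100 bp joined, and 6 and 304 with peaks within 1 and 5 kb joined. By replicate number, del-cIDR exceeded full-length by 24 peaks (number 1) and 35 peaks (number 2). No paired analysis was possible because no model or test was fitted to which a block could be added.

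Read numbers and signal were not analysed here. A place with no listed peak is therefore one below the authors' threshold in that library, and is not shown to lack binding.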
